A study of Mus musculus with 9 samples.

Results

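The genes described here encode the constitutive proteasome, measured in sorted blood stem and progenitor cells of leukemic and control mice. A gene was taken if its probe sets carry 1 gene symbol that starts with Psma, Psmb, Psmc, Psmd, Psme, Psmf or Psmg followed by a digit. Psmb8, Psmb9 and Psmb10, the inducible catalytic subunits of the immunoproteasome, were left out. This rule gave 46 of the 18193 genes named on the array. It uses names alone, and no measured value enters it. Of the 46, 44 are subunits, regulators or assembly chaperones of the proteasome. Psmc3ip and Psme3ip1 match the form of the symbol but encode proteins that are no part of the particle, a meiotic recombination factor and a partner of the activator PSME3. Psme2 is not among the genes, because its probe set carries 2 symbols.

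RNA came from CD45.1+ LKS+ cells of bone marrow, which the labels call normal blood stem cells, sorted from C57BL/6 mice aged 8 weeks. LKS+ usually means lineage-negative cells with KIT and Sca-1 on their surface, a fraction that holds stem cells together with multipotent progenitors. The 3 groups are cells from leukemic mice at day 14, cells from leukemic mice at day 7 and cells from control mice, with 3 arrays each. The series title names the leukemia as acute myeloid; the way it was induced, the leukemia's genotype and the day the controls were taken are not given in the sources used here. The replicates are labelled biological, but no label says whether each came from its own animal or from a pool, so p-values measure the spread between these arrays. CD45.1 is an allelic form of the pan-leukocyte protein PTPRC that is often used to tell cells of 2 origins apart in 1 mouse.

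The proteasome is the protease that degrades most short-lived and damaged proteins tagged with ubiquitin. Its 20S core is a barrel of stacked rings: outer alpha rings that gate the entrance and inner beta rings that carry the cutting sites. A 19S cap recognises the ubiquitin chain, removes it, and unfolds the substrate with a ring of ATPases. Other caps, the PA28 and PA200 activators, open the barrel without ubiquitin. Dedicated chaperones build the rings and leave the finished particle. When proteasome activity runs short, the transcription factor NFE2L1, paired with a small MAF protein, raises transcription of many of these genes together through antioxidant response elements in their promoters. Blood stem cells are known for a low rate of protein synthesis and for their sensitivity to misfolded protein.

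Because the genes moved together across the groups, the promoters of members were searched for motifs by which they can be regulated together. RefSeq sequence of mouse build GRCm38.p6 from 250 bases before to 50 bases after the start site was given for 38 of the 46 genes, as 41 promoters. The core of the antioxidant response element, TGACNNNGC on either strand, stood in 6 of these 41 promoters (14.6%), against 4071 of 32851 promoters of the same length (12.4%). The stretches shown are 60 bases long and lie upstream of the start site, with the motif in capitals, for 5 genes of the beta ring, the ATPase ring, the lid and the base chaperones. Psmb5 is at chr14:54618008-54618067 on the minus strand. Psmb6 is at chr11:70525297-70525356, Psmc6 at chr14:45329574-45329633, Psmd12 at chr11:107479278-107479337 and Psmd9 at chr5:123228130-123228189, all on the plus strand.
Psmb5: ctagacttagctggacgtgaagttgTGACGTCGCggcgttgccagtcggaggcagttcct
Psmb6: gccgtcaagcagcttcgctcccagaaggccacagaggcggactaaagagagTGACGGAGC
Psmc6: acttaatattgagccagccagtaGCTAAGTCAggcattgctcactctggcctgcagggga
Psmd12: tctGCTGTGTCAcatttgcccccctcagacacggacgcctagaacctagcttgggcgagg
Psmd9: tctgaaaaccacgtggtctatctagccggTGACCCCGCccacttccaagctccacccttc
In Psmc6 and Psmd12 the capitals are the reverse complement of the motif, which is on the opposite strand there. Of the 5 genes, Psmb5, Psmb6 and Psmd12 fell at day 14 against control. Psmc6 (-0.096) and Psmd9 (-0.20) had negative log2 differences that did not pass the test, and Psmd9 fell against day 7 (-0.41). Differences between the 5 genes were not tested. The remaining promoter with the motif belongs to Psme4.

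Of the other motifs searched on both strands, the GC box GGGCGG was in 22 of 41 member promoters (53.7%), against 35.7% of all promoters. CCAAT was in 15 (36.6%), against 37.4% of all, and the E box CACGTG in 4 (9.76%), against 7.15% of all. The palindromic motif of nuclear respiratory factor 1, a factor unrelated to NFE2L1, was in the promoters of Psma2 and Psmg1 (4.88%), against 0.971% of all. These matches describe letters in a window of 300 bases and do not show that a factor was bound.

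Of the 46 genes, 45 were bright enough to be tested. Psmb11, the beta subunit of the thymus, was not: its intensity averaged 7.52 ± 2.09 at day 14, 6.95 ± 0.998 at day 7 and 5.98 ± 0.62 in controls (SD, n = 3 each), below the limit of 14.1 to 15.2 set for a measured probe set. Values are the authors' normalized intensities on a linear scale, and 1 probe set, the brightest, stands for each gene. Intensity depends on the probes, so levels are compared between groups and not between genes. In bulk RNA of sorted cells, fewer cells of a type and less RNA per cell cannot be told apart. A gene is said to have risen or fallen where its adjusted p in limma was below 0.05.

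Across the 9 arrays, transcripts of the proteasome were lowest at day 14 in nearly every gene. At day 14, 36 of the 45 genes fell against control, none rose and 9 did not pass the test. In limma 39 had an unadjusted p below 0.05, as had 7423 of all 12652 genes tested, in either direction. Psma8 and Psmf1, which alone had positive differences, were not among the 39 (unadjusted p = 0.0824 and 0.433). In the same comparison 34.1% of all 12652 genes tested fell and 18.3% rose, 52.4% in all. The median log2 difference of the 45 genes was -0.38, a ratio of 0.769, with an interquartile range of 0.36, against a median of -0.061 over all genes tested. In 38 of the 45 genes all 3 day 14 arrays lay below all 3 controls, a pattern found in 37.3% of all genes. The other 7 overlapped, and in 0 did day 14 lie wholly above the controls, against 20.8% of all genes. The size of the fall depends on how the arrays are scaled, since the day 14 arrays had a lower 75th percentile (114.6 to 119.2) than the day 7 (127.7 to 130.2) and control arrays (126.8 to 128.5). With quantile normalization 35 genes fell and 1 rose, beside 26.8% of all genes falling and 22% rising. With the 75th percentile set equal in every array 28 fell and 1 rose, beside 23.2% of all genes falling and 31.2% rising. The median of the members lay 0.32 below that of all genes as deposited and with equal 75th percentiles, and 0.34 below it after quantile normalization.

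**Figure D1:**
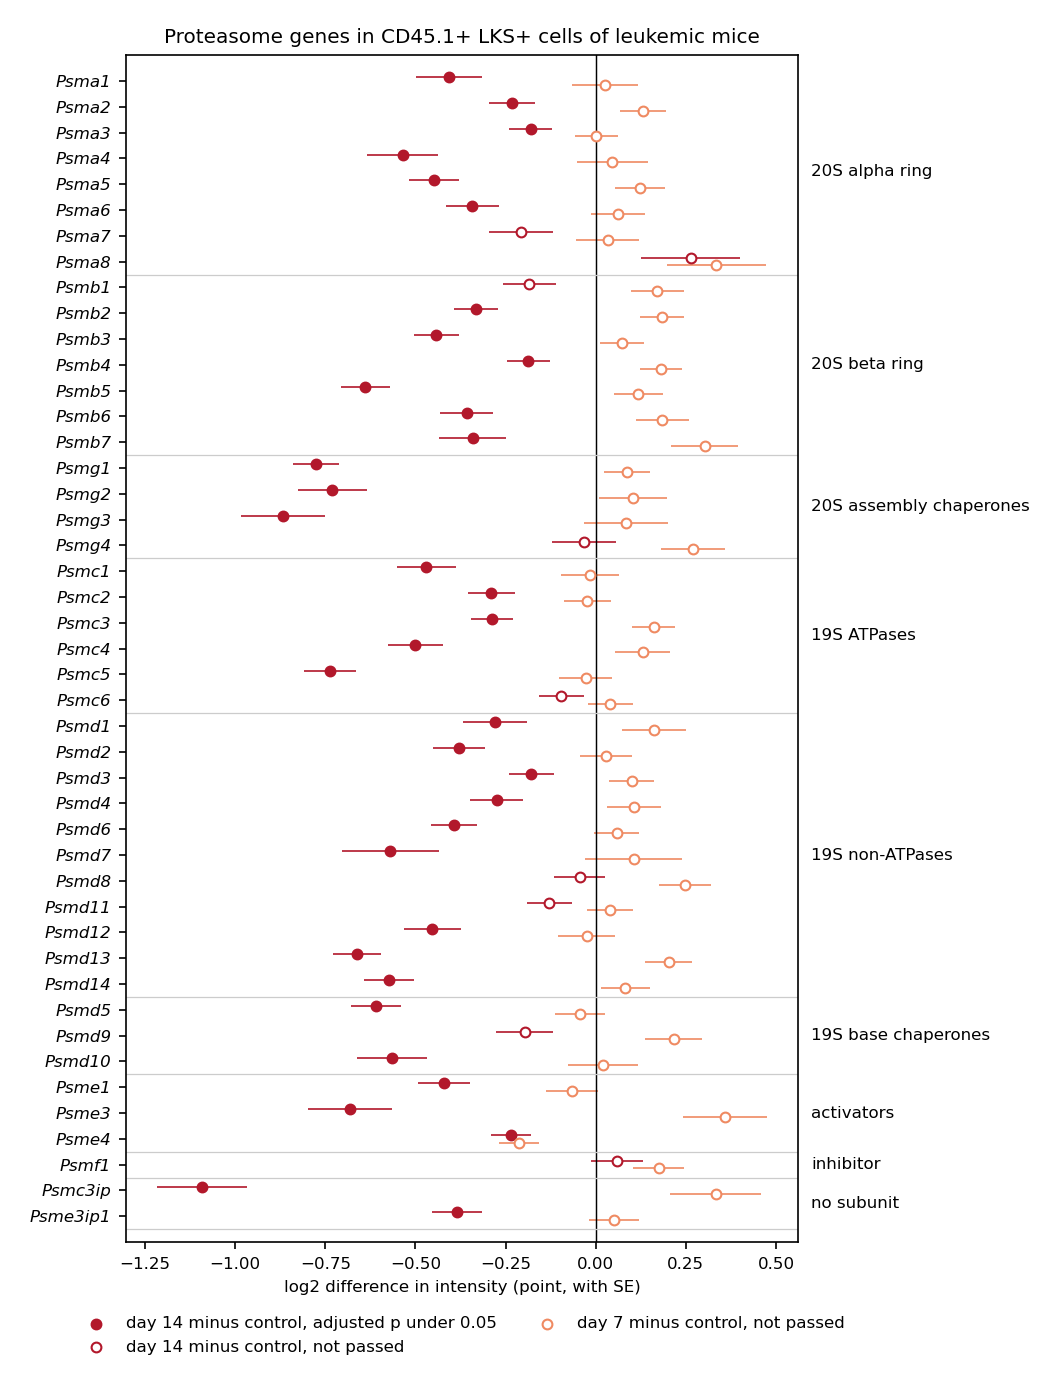
Log2 difference in intensity of each of the 45 proteasome genes tested, for day 14 minus control and day 7 minus control. Genes are grouped by role and bars give the standard error. Points for day 14 lie left of 0 except for Psma8 and Psmf1 against control, while the day 7 points scatter around a median of 0.099.

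At day 7 the proteasome genes stood close to the controls. None of the 45 genes passed the test against control in limma, where 423 of all genes (3.34%) were called, 2.21% rising and 1.13% falling. Of the 45, 15 had an unadjusted p below 0.05 in limma, as had 2511 of all 12652 genes tested. The direction was mostly upward and small: 38 genes had a positive difference and 7 a negative one, with a median of 0.099 against 0.013 over all genes. All 3 day 7 arrays lay above all 3 controls in 17 genes, a pattern of 15.2% of all genes, and below them in Psme4 alone, against 11.3% of all genes.

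The test of day 14 against day 7 compares the stages directly. Here 41 of the 45 genes fell and none rose, beside 33.6% of all genes falling and 17.4% rising. All 45 differences were negative as deposited, with a median of -0.44 against -0.059 over all genes. With quantile normalization or equal 75th percentiles Psma8, Psme4 and Psmf1 had small positive differences, none of which passed the test. The genes that did not pass were Psma8, Psmc6, Psme4 and Psmf1. In 43 of the 45 genes the day 14 and day 7 arrays did not overlap, with day 14 lower, against 38.6% of all genes. After quantile normalization 39 genes fell, beside 27.1% of all genes, and with equal 75th percentiles 34 fell, beside 23.3% of all genes. Over the 3 groups together, 40 of 45 genes differed in the F-test, where 54.8% of all genes did.

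**Figure D2:**
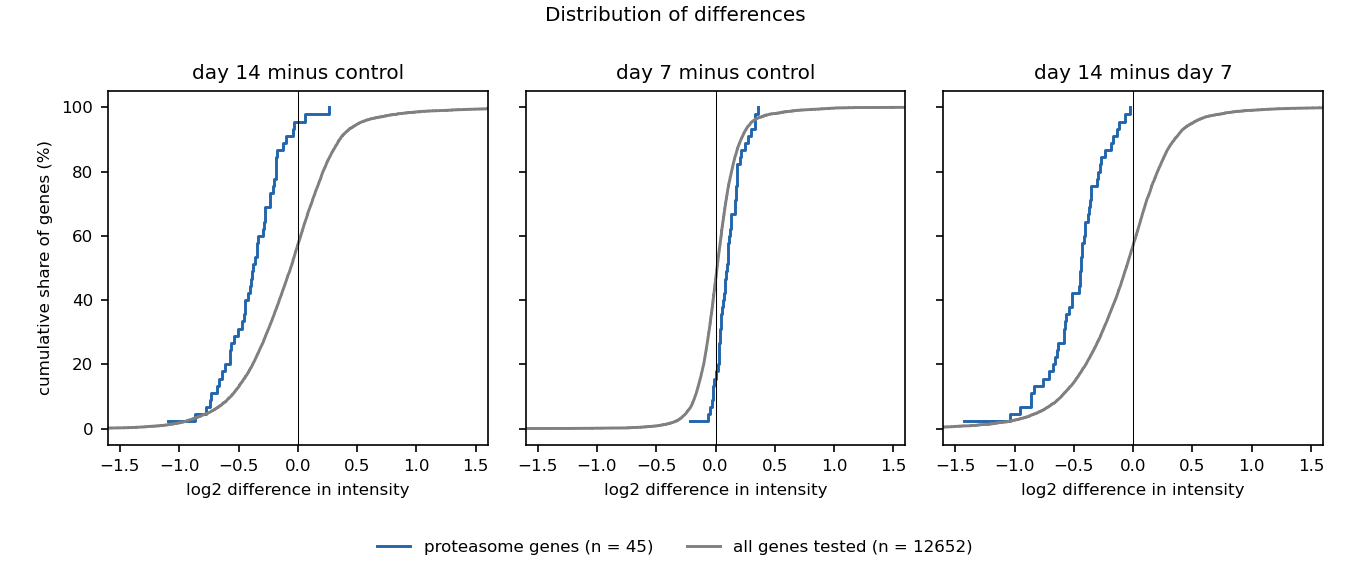
Cumulative share of genes (%) against the log2 difference in intensity, for the 45 proteasome genes tested and for all 12652 genes tested. In both comparisons of day 14 the proteasome curve lies left of the curve of all genes, with medians of -0.38 against control and -0.44 against day 7, and for day 7 minus control it lies slightly to the right.

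The median log2 intensity of the 45 genes in single arrays was 8.98, 8.98 and 9.10 at day 14, 9.63, 9.66 and 9.63 at day 7, and 9.48, 9.50 and 9.34 in the controls. The day 14 arrays were lowest without overlap and the day 7 arrays highest. Control replicate 3 was the lowest of the controls and the nearest to day 14.

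**Figure D3:**
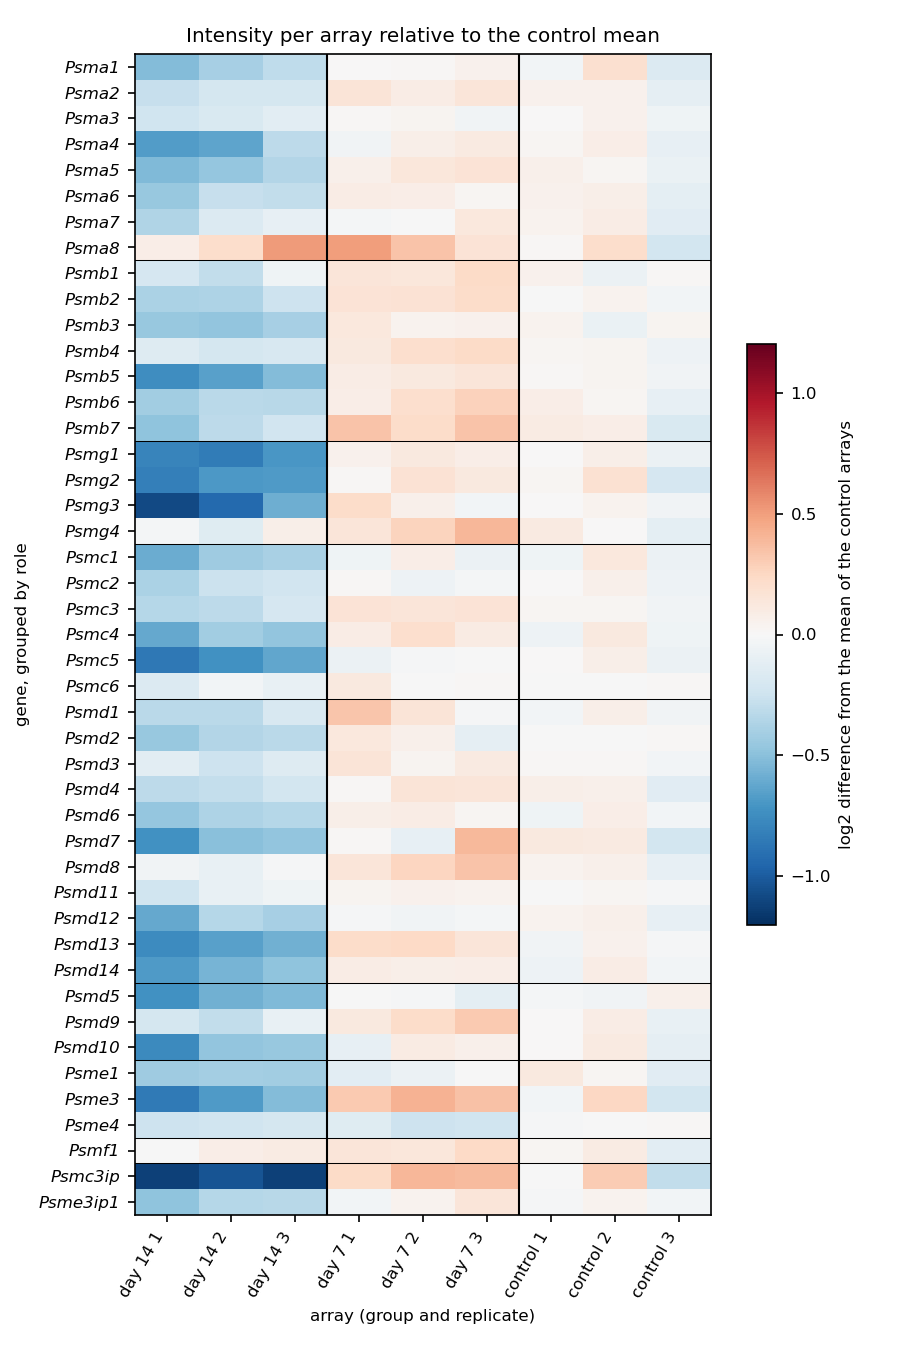
Log2 intensity of the 45 genes in each of the 9 arrays relative to the mean of the controls, with genes in rows grouped by role and arrays in columns by group. Blue marks values below the control mean and red values above it; the 3 day 14 columns are blue in nearly all rows, and Psma8 and Psmf1 are exceptions.

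The alpha ring, which gates the core, fell in 6 of its 8 genes at day 14 against control, with a median of -0.29. Psma4 changed most. Its intensity was 1334, 1369 and 1706 in the day 14 arrays, 2053, 2226 and 2282 in the day 7 arrays and 2148, 2241 and 1971 in the controls. Every day 14 array was below every other array, and replicate 3 was the highest of the day 14 arrays. The log2 difference of Psma4 was -0.54 (SE 0.098, adjusted p = 0.00129) against control and -0.58 (SE 0.098, adjusted p = 7.23e-04) against day 7, with 0.046 for day 7 against control. Psma1 (-0.41), Psma5 (-0.45), Psma6 (-0.34), Psma2 (-0.23) and Psma3 (-0.18) fell as well, all subunits found in every proteasome. With all probe sets of a gene averaged, Psma1 was at -0.088 (adjusted p = 0.307) and Psma6 at -0.070 (adjusted p = 0.397) against control, and neither call was kept. Calls for Psma2 and Psma3 were lost when the 75th percentiles were set equal, at -0.11 (adjusted p = 0.165) and -0.060 (adjusted p = 0.398). The call for Psma3 was also lost with probe sets averaged, in a fit of only the 2 groups compared and when any of 4 arrays was left out. Psma7, at -0.21 (SE 0.088, adjusted p = 0.0707), did not pass against control but fell against day 7 (-0.24, adjusted p = 0.0418). That call was lost after quantile normalization (-0.20, adjusted p = 0.0657), with equal 75th percentiles (-0.11, adjusted p = 0.294), with a replicate block, with no filter applied and when any of 6 of the 9 arrays was left out. Against control, Psma7 passed with all probe sets averaged (-0.25, adjusted p = 0.0256) and with a trended and robust prior (adjusted p = 0.0407). It also passed there without control replicate 3 or without day 14 replicate 3. A second probe set of Psma7, nearly as bright (928.7 against 1002 on average), fell against control (-0.29, adjusted p = 0.0182) and against day 7 (-0.41, adjusted p = 0.00333).

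Psma8 replaces Psma7 in the proteasomes of the testis, where it serves meiosis. Its dim probe set read 56.6, 62.1 and 76.4 in the day 14 arrays, 75.99, 68.02 and 60.3 in the day 7 arrays and 54.3, 62.1 and 46.1 in the controls. The groups overlapped, with a log2 difference of 0.26 (SE 0.14, adjusted p = 0.129) for day 14 against control and 0.33 (SE 0.14, adjusted p = 0.207) for day 7. Under quantile normalization and with equal 75th percentiles, the day 14 difference was 0.38 in both and passed the test (adjusted p = 0.0451 and 0.0293), so Psma8 is the gene called upward under those scalings.

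In the beta ring, 6 of the 7 genes tested fell at day 14 against control (median -0.34), and all 7 fell against day 7 (median -0.52). The ring holds the 3 constitutive active sites, PSMB6 (caspase-like), PSMB7 (trypsin-like) and PSMB5 (chymotrypsin-like, the main target of proteasome inhibitors). Psmb5 fell most, with an intensity of 446, 475 and 519 in the day 14 arrays, 792, 811 and 825 in the day 7 arrays and 751, 764 and 723 in the controls. Its day 14 arrays were well apart from the rest, with a log2 difference of -0.64 (SE 0.068, adjusted p = 5.85e-05) against control and -0.76 (SE 0.068, adjusted p = 2.54e-05) against day 7. For Psmb6 the intensity was 596, 636 and 634 in the day 14 arrays, 841, 917 and 964 in the day 7 arrays and 843, 808 and 744 in the controls, and it fell by 0.36 on the log2 scale (SE 0.073, adjusted p = 0.00248). Psmb7 read 272, 305 and 323 in the day 14 arrays, 481, 441 and 481 in the day 7 arrays and 407, 401 and 334 in the controls. At day 7 all 3 arrays of Psmb7 were above the controls, though the difference of 0.30 (SE 0.093, adjusted p = 0.108) did not pass. At day 14 it fell by 0.34 on the log2 scale (SE 0.093, adjusted p = 0.0115), a call lost with equal 75th percentiles (-0.22, adjusted p = 0.0592).

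The noncatalytic beta subunits fell by different amounts. Psmb3 (-0.44), Psmb2 (-0.33) and Psmb4 (-0.19) fell at day 14 against control. The Psmb4 call was lost with equal 75th percentiles (-0.066, adjusted p = 0.407) and with all probe sets averaged (-0.036, adjusted p = 0.685). It was also lost without control replicate 1, control replicate 2 or day 14 replicate 2. Psmb1, at -0.18 (SE 0.074, adjusted p = 0.0578), did not pass against control and fell against day 7 (-0.35). In 6 of the 7 beta genes tested, all except Psmb6, the day 7 arrays lay wholly above the controls, where 15.2% of all genes did, and 0 of these differences passed the test.

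The inducible catalytic subunits, which take the place of the constitutive ones under interferon and are common in blood cells, moved in the same direction. Psmb8, the counterpart of Psmb5, read 1274, 1328 and 1347 in the day 14 arrays, 1898, 1896 and 2036 in the day 7 arrays and 2057, 1906 and 1955 in the controls. Psmb9, the counterpart of Psmb6, read 744, 744 and 802 in the day 14 arrays, 1155, 1158 and 1320.1 in the day 7 arrays and 1379, 1081 and 1110.3 in the controls. Psmb10, the counterpart of Psmb7, read 528, 508 and 627 in the day 14 arrays, 837, 814 and 892 in the day 7 arrays and 917, 799 and 735 in the controls. In all 3 genes the day 14 arrays were below all others, and the day 7 and control arrays overlapped. Their log2 differences at day 14 against control were -0.58 (SE 0.061, adjusted p = 5.47e-05) for Psmb8, -0.63 (SE 0.098, adjusted p = 4.94e-04) for Psmb9 and -0.56 (SE 0.10, adjusted p = 0.00114) for Psmb10. At day 7 they were -0.021, 0.031 and 0.058, none past the test. The fall of the inducible subunits, -0.63 to -0.56, lay in the range of the 3 constitutive catalytic ones, -0.64 to -0.34; the difference between the sets was not tested.

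**Figure D4:**
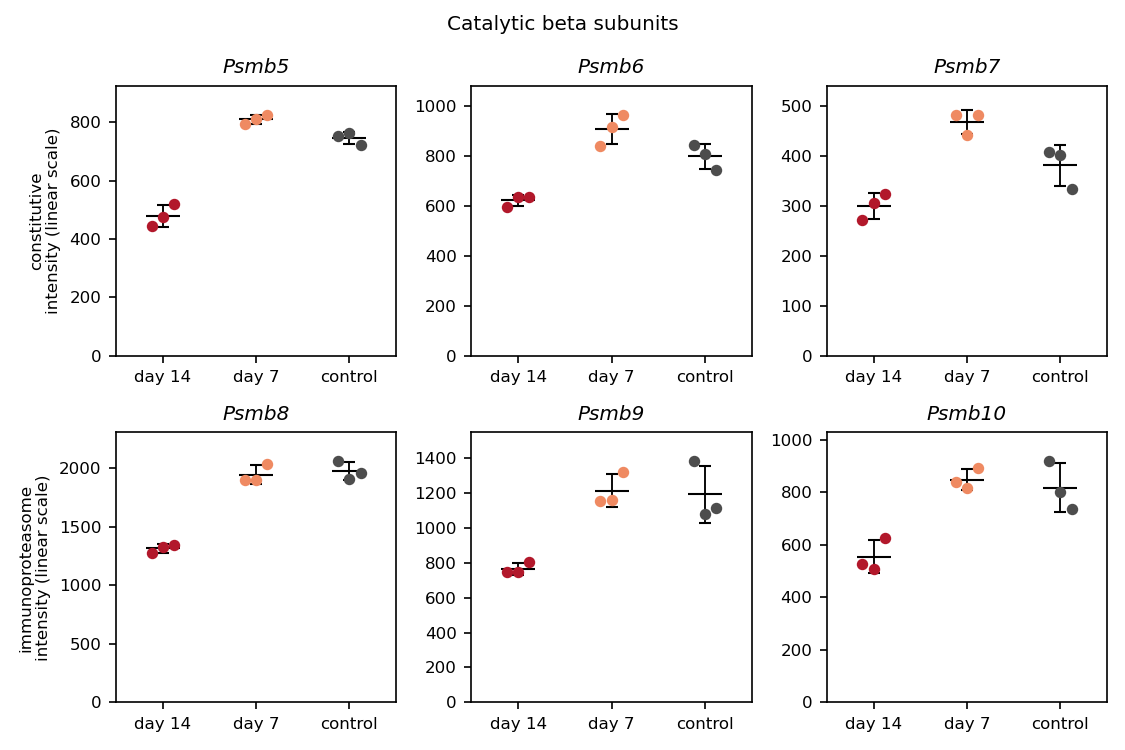
Intensity (linear scale, from 0) of the constitutive catalytic subunits Psmb5, Psmb6 and Psmb7 and of the immunoproteasome subunits Psmb8, Psmb9 and Psmb10 in each array, with the mean and SD of 3 arrays per group. In all 6 genes the day 14 points lie below every day 7 and control point.

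Of the 4 chaperones that build the alpha ring, 3 fell at day 14 against control. The median of the 4 was -0.75, against -0.34 for the core subunits they help assemble; the difference between these groups was not tested. PSMG1 and PSMG2 form 1 chaperone pair, PSMG3 and PSMG4 the other. Psmg1 read 327, 317 and 350.5 in the day 14 arrays, 589.8, 616 and 601 in the day 7 arrays and 569.5, 595 and 539 in the controls, with a log2 difference at day 14 of -0.78 (SE 0.065, adjusted p = 1.56e-05). Psmg2 read 279.5, 307 and 309 in the day 14 arrays, 500.2, 558 and 539 in the day 7 arrays and 503, 560.2 and 431 in the controls, a difference of -0.73 (SE 0.095, adjusted p = 1.87e-04). Both partners of the first pair were thus lower by similar amounts, without overlap between day 14 and either other group. Psmg3 read 147, 163 and 207 in the day 14 arrays, 363, 324 and 304 in the day 7 arrays and 312, 319 and 302 in the controls, with the lowest difference of any subunit, regulator or chaperone, -0.87 (SE 0.12, adjusted p = 2.22e-04). Its partner Psmg4 read 216, 198 and 230.3 in the day 14 arrays, 242, 264 and 288 in the day 7 arrays and 236, 220.4 and 202 in the controls. The day 14 arrays of Psmg4 overlapped the controls, with a difference of -0.031 (SE 0.089, adjusted p = 0.784) that turned to 0.071 after quantile normalization and 0.090 with equal 75th percentiles. Against day 7, Psmg4 fell (-0.30, SE 0.089, adjusted p = 0.0163), a call lost under both scalings.

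The 6 ATPases of the 19S base unfold the substrate and thread it into the core. Of these, 5 fell at day 14 against control, with a median of -0.38. Psmc5 changed most, at 355, 389 and 417 in the day 14 arrays, 614, 638 and 640.04 in the day 7 arrays and 646, 674 and 611 in the controls. No day 14 array reached the other groups, and the log2 difference was -0.74 (SE 0.072, adjusted p = 3.83e-05) against control and -0.71 (SE 0.072, adjusted p = 4.24e-05) against day 7. Psmc4 (-0.50), Psmc1 (-0.47), Psmc3 (-0.29) and Psmc2 (-0.29) fell too. Psmc6 stayed closest to control at -0.096 (SE 0.062, adjusted p = 0.215), although its 3 day 14 arrays lay below the controls, and with equal 75th percentiles its difference was 0.025. None of the 6 passed the test at day 7, with differences from -0.028 to 0.16.

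The non-ATPase subunits of the 19S cap fell in 9 of 11 genes against control (median -0.38) and in 11 of 11 against day 7 (median -0.43). Psmd13, a lid subunit, fell most, reading 162, 174 and 183 in the day 14 arrays, 319, 322 and 302 in the day 7 arrays and 265, 284 and 271 in the controls. The groups separated fully, day 7 above the controls and day 14 below them, with a difference at day 14 of -0.66 (SE 0.065, adjusted p = 3.91e-05) against control and -0.86 (SE 0.065, adjusted p = 1.42e-05) against day 7. Psmd14, the deubiquitinase that strips the chain from the substrate, fell by 0.57 on the log2 scale (adjusted p = 1.14e-04). The lid subunits Psmd7 (-0.57), Psmd12 (-0.45), Psmd6 (-0.39) and Psmd3 (-0.18) fell as well. So did the scaffolds of the base, Psmd2 (-0.38) and Psmd1 (-0.28), and the ubiquitin receptor Psmd4 (-0.27). The calls for Psmd1, Psmd3 and Psmd4 were lost with equal 75th percentiles, at -0.16, -0.057 and -0.15, and that for Psmd3 also after quantile normalization, at -0.089. Psmd3 lost its call as well in a fit of only the 2 groups compared and when any of 4 arrays was left out. Psmd1 lost it with no filter and when any of 3 arrays was left out.

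Psmd11 and Psmd8, both lid subunits, did not pass against control. Psmd11 was at -0.13 (SE 0.063, adjusted p = 0.109) with all day 14 arrays below the controls. Against day 7 Psmd11 only just passed (-0.17, adjusted p = 0.0452), and the call was lost with equal 75th percentiles (-0.037, adjusted p = 0.612), with probe sets averaged, with a replicate block, in a fit of only the 2 groups and when any of 8 of the 9 arrays was left out. Psmd8 read 677, 655 and 690.1 in the day 14 arrays, 768, 832 and 882 in the day 7 arrays and 714, 726 and 648 in the controls. Its day 7 arrays were above all others and its day 14 arrays overlapped the controls. The differences for Psmd8 were -0.045 (SE 0.072, adjusted p = 0.619) at day 14, 0.25 (SE 0.072, adjusted p = 0.0897) at day 7 and -0.29 (SE 0.072, adjusted p = 0.00638) for day 14 against day 7. In the 17 subunits of the 19S particle together, 14 fell at day 14 against control (median -0.38), and in the 15 tested subunits of the 20S core 12 did (median -0.34).

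The 3 chaperones of the 19S base that are among these genes hold the ATPases apart until the ring closes. Psmd5 read 251, 278 and 288 in the day 14 arrays, 414, 412 and 383 in the day 7 arrays and 409, 404 and 433 in the controls, and fell at day 14 with -0.61 (SE 0.070, adjusted p = 8.99e-05). Psmd10, also known as gankyrin, read 142, 174 and 176 in the day 14 arrays, 226, 259 and 251 in the day 7 arrays and 242, 259.7 and 224 in the controls, with -0.56 (SE 0.097, adjusted p = 9.27e-04). Both fell without overlap with the other groups. Psmd9 read 111, 105 and 121 in the day 14 arrays, 139.8, 149 and 159 in the day 7 arrays and 129, 136 and 120.4 in the controls. Its day 7 arrays lay above the controls and its day 14 arrays reached them, so that the difference was -0.20 (SE 0.079, adjusted p = 0.059) against control and -0.41 (SE 0.079, adjusted p = 0.0016) against day 7.

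The activators did not share 1 course. Psme1 encodes PA28 alpha, an interferon-gamma-inducible cap, and read 1717, 1741 and 1729 in the day 14 arrays, 2124, 2199 and 2312 in the day 7 arrays and 2507, 2348 and 2105 in the controls, a difference at day 14 of -0.42 (SE 0.072, adjusted p = 9.21e-04) and at day 7 of -0.066. Psme3 encodes the nuclear cap PA28 gamma and read 78.2, 87.9 and 98.1 in the day 14 arrays, 175, 188 and 179 in the day 7 arrays and 137, 167 and 121 in the controls. Its groups separated in both directions, with day 7 above all controls and day 14 below them. Psme3 differed by 0.36 (SE 0.12, adjusted p = 0.123) at day 7, which did not pass, by -0.68 (SE 0.12, adjusted p = 8.87e-04) at day 14, and by -1.04 (SE 0.12, adjusted p = 6.47e-05) between day 14 and day 7. Without the second control, the day 7 difference of Psme3 was 0.48 and passed (adjusted p = 0.0334). Psme4 encodes PA200, a cap with roles in DNA repair and in spermatogenesis, and read 503, 506 and 515 in the day 14 arrays, 539, 503 and 507 in the day 7 arrays and 593, 596 and 604 in the controls. It was below the controls at both stages, with differences of -0.23 (SE 0.056, adjusted p = 0.00548) at day 14 and -0.21 (SE 0.056, adjusted p = 0.0694) at day 7, of which only the first passed. Between day 14 and day 7 Psme4 differed by -0.023 (SE 0.056, adjusted p = 0.746). With equal 75th percentiles the day 14 call for Psme4 was lost (-0.11, adjusted p = 0.106), and under 4 of the other settings the day 7 difference, -0.21 to -0.20, passed.

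PSMF1, known as PI31, binds the core and inhibits it in the test tube. The brightest probe set of Psmf1 read 150.2, 159 and 162 in the day 14 arrays, 167, 166 and 178 in the day 7 arrays and 153, 162 and 139 in the controls. Day 14 overlapped the controls, with 0.058 (SE 0.071, adjusted p = 0.513), and the difference at day 7 was 0.17 (SE 0.071, adjusted p = 0.209). The direction depends on the probe sets taken: with all 4 probe sets of Psmf1 averaged it fell at day 14 against control (-0.21, adjusted p = 0.0346).

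Both genes that share only the form of the symbol fell. Psmc3ip, the recombination factor, read 70.001, 73.9 and 69.98 in the day 14 arrays, 178, 199.9 and 197 in the day 7 arrays and 151, 188 and 124 in the controls. At -1.09 (SE 0.13, adjusted p = 8.97e-05) it had the lowest difference of all 46 genes at day 14, and without the second control its day 7 difference of 0.48 passed (adjusted p = 0.0279). Psme3ip1 read 323, 356 and 357 in the day 14 arrays, 439, 463 and 499 in the day 7 arrays and 446, 464 and 441 in the controls, a difference of -0.39 (SE 0.069, adjusted p = 0.00116). Without these 2 genes, 34 of 43 tested fell at day 14 against control, with a median of -0.36.

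Of the 99 probe sets of the 46 genes, 87 were tested, each as a feature of its own, and 22 genes had more than 1. At day 14 against control 51 of the 87 fell and 2 rose, where 27.5% and 17.0% of all 27665 probe sets tested did. The 2 that rose are dim probe sets of Psme4, at 0.61 and 1.004 with mean intensities of 26.3 and 19.99, while its 3 brighter ones lay at -0.23, -0.18 and -0.37. Psme4 was the only gene called in both directions there. For Psmf1, the probe set that stood for the gene (0.058) was barely brighter, 159.5 against 139.8 on average, than one that fell by 0.42 on the log2 scale (adjusted p = 0.00645), and another fell by 0.35. Second probe sets of Psmc4 (-0.091), Psmd6 (-0.11) and Psmb4 (0.12) did not pass where the brightest ones fell. Psmd11 had 7 tested probe sets, of which 0 passed. At day 7, 1 of the 87 passed, a probe set of Psmd13 that fell by 0.65 on the log2 scale, where 1.49% of all probe sets fell. Between day 14 and day 7, 51 fell and 4 rose, where 25.7% and 16.5% of all probe sets did, and Psma1 and Psmd9 had probe sets called in both directions.

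**Figure D5:**
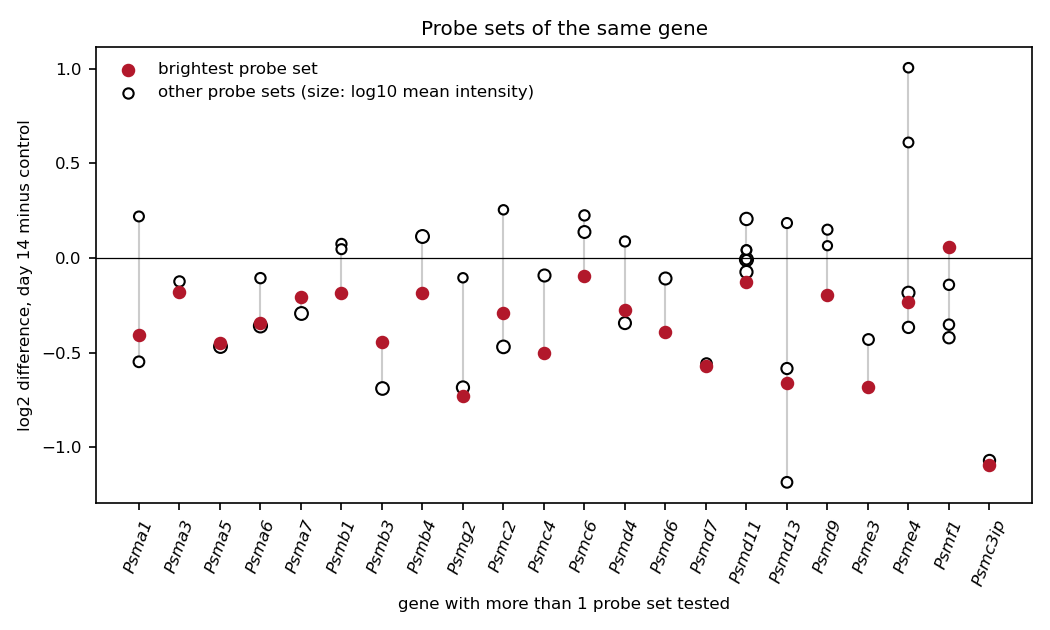
Log2 difference at day 14 minus control of every tested probe set, for the 22 genes with more than 1, with the brightest probe set filled and the others open and sized by log10 mean intensity. Most probe sets lie below 0; the open points of Psme4 at 0.61 and 1.004 stand highest.

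Other genes of the pathway were taken from 5 lists, of which 26 of 35 genes were measured. In these, 6 rose and 9 fell at day 14 against control, where 18.3% and 34.1% of all genes did, with a median of -0.13. Together 57.7% of the 26 were called, near the 52.4% of all genes. The 9 that fell include the 3 immunoproteasome subunits described above. The difference between these genes and the proteasome genes was not tested. Among subunits and partners under other symbols, 8 of 10 were measured, with a median of -0.12. Uchl5, a deubiquitinase of the 19S cap, fell (-0.38, SE 0.10, adjusted p = 0.0125), and so did Pomp, the chaperone that matures the beta ring (-0.21, SE 0.073, adjusted p = 0.0307). Usp14, the deubiquitinase that binds the cap reversibly, rose (0.39, SE 0.077, adjusted p = 0.00204), but the mean of its probe sets was at -0.15. Akirin2, which carries proteasomes into the nucleus, rose (0.16, SE 0.054, adjusted p = 0.0344), but the call was lost with probe sets averaged (0.091, adjusted p = 0.145), with a replicate block (adjusted p = 0.0621), in a fit of only the 2 groups (adjusted p = 0.0749) and when any of 5 arrays was left out: control replicate 1 or 2, day 7 replicate 2, or day 14 replicate 2 or 3. The calls for Uchl5 and Pomp were lost with equal 75th percentiles, and that for Pomp also with a replicate block and in a fit of only the 2 groups.

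Nfe2l1 itself did not pass in any comparison. It read 331, 318 and 339 in the day 14 arrays, 344, 341 and 352 in the day 7 arrays and 329.7, 312 and 333 in the controls. Day 14 overlapped the controls and day 7 lay above both, with differences of 0.021 (SE 0.058, adjusted p = 0.783) at day 14 and 0.090 (SE 0.058, adjusted p = 0.433) at day 7. In its list, 8 of 9 genes were measured, 3 rose at day 14 and 1 fell. The 3 that rose were the small MAF partners. Maff read 887, 779.8 and 699 in the day 14 arrays, 281, 288 and 259 in the day 7 arrays and 167, 134 and 128 in the controls, a difference at day 14 of 2.47 (SE 0.11, adjusted p = 9.39e-07) and at day 7 of 0.96 (SE 0.11, adjusted p = 0.00454), with the groups in order and without overlap. Mafk (1.15, SE 0.074, adjusted p = 6.07e-06) and Mafg (0.44, SE 0.075, adjusted p = 8.73e-04) rose at day 14. Vcp, the segregase that extracts NFE2L1 from the endoplasmic reticulum, fell by 0.15 on the log2 scale (adjusted p = 0.0406). The Vcp call was lost under quantile normalization, with equal 75th percentiles, with a replicate block and in a fit of only the 2 groups. It was also lost when any of the 9 arrays was left out, and the mean of the Vcp probe sets was at 0.075.

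Of the ubiquitin genes and activating enzymes 1 of 6 was measured, Uba6, which activates ubiquitin and FAT10, and it fell (-0.33, SE 0.086, adjusted p = 0.00952). Of the shuttle and segregase factors 6 of 7 were measured. Ubqln1 (-0.28) and Ubqln4 (-0.22) fell and Ubqln2 rose (0.29), all 3 carriers of ubiquitinated proteins to the proteasome. The calls for Uba6, Ubqln1 and Ubqln4 were lost with equal 75th percentiles, that for Ubqln4 also after quantile normalization, and that for Ubqln1 also with probe sets averaged. At day 7, 1 of the 26 genes passed, Maff.

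The labelled cell type and the markers of other blood cells were looked at in the same arrays. Of the LKS+ and stem cell markers 11 of 12 were measured, Kit among them, all above the limit; Ly6a, the gene of Sca-1, was not analysed here. Their summed intensity was 13430 to 14490 at day 14, 12740 to 13370 at day 7 and 14010 to 14470 in controls, with day 14 and control ranges overlapping. Within the list Gata2 rose at day 14 against control (0.43, adjusted p = 0.00296), while Cd48 (-0.85, adjusted p = 9.83e-05) and Procr (-0.43, adjusted p = 0.0117) fell. In that comparison 18.3% of all genes tested rose and 34.1% fell, the reference for the counts of each list below. The 7 megakaryocyte and platelet markers summed to 1595 to 1875 at day 14, 753.3 to 809.2 at day 7 and 604.5 to 688 in controls, and 5 of them rose at day 14 and none fell. Myeloid markers, 10 of 12 measured, summed to 9088 to 11120 at day 14, 7415 to 8917 at day 7 and 6692 to 8187 in controls. B cell markers, 7 of 8 measured, summed to 339.3 to 437.5 at day 14, 304.2 to 371.2 at day 7 and 256.1 to 269.4 in controls. Both sums were higher at day 14 than in controls without overlap, but their genes did not move 1 way: of the myeloid markers 4 rose and 2 fell, S100a8 (-0.99) and S100a9 (-0.75), and of the B cell markers 4 rose and 1 fell, Cd79b (-0.58). The B cell gene Ms4a1 was below the limit in every array. T and NK cell markers, 8 of 9 measured, summed to 700.8 to 819.5 at day 14, 932.8 to 970.3 at day 7 and 819.4 to 924.1 in controls. Of these 3 rose at day 14, Cd3e (0.45), Cd8a (0.37) and Klrd1 (1.52), and 1 fell, the bright Nkg7 (-0.49, adjusted p = 9.16e-04), so the sum, which touched the control range, does not give the direction of the other genes. Erythroid markers, 6 of 8 measured, summed to 790.4 to 861.7 at day 14, 880.4 to 887.2 at day 7 and 717.4 to 1434 in controls, and 1 rose, Tfrc (0.31). The T cell genes Cd3g, Cd3d and Cd2 and the erythroid genes Hba-a1 and Alas2 were below the limit in every array. The part of these cells in the differences of the proteasome genes was not tested.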

How the data were processed

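The values are linear intensities that the authors deposited for 45037 probe sets on 9 Affymetrix mouse arrays (430 2.0). According to the series design text, a two-cycle kit amplified the RNA and the authors normalized the intensities with Microarray Analysis Software v5.0. Further steps are not given in the sources used here. In 51.64% of probe sets at least 2 arrays hold exactly equal values (7 of the 46 probe sets that stand for proteasome genes), so the normalization behind the deposited table is uncertain: values shared exactly between arrays would fit a procedure run over all arrays jointly. The scaling was therefore varied. Amplification of this kind favours the 3′ ends of transcripts.

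Gene names come from GEO's platform annotation, in which 34945 had 1 symbol, 932 several and 9160 none. Before taking log2, a floor was set at 5.81, the 20th percentile over the whole table. Genes entered the test when at least 3 arrays held a value over that array's 40th percentile, which kept 12652 of 18193. The test was a limma model (limma 3.58.1, R 4.3.3), 1 fit over the 9 arrays with 3 group means, as moderated two-sided tests with Benjamini-Hochberg adjustment over all genes tested, and called at an adjusted p below 0.05. The comparisons of day 14 and of day 7 with control share the control arrays, so the stages were compared in the same fit. The procedure was tested on simulated data. Promoters were searched in Python 3.11.15. The number of arrays limits the precision.

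Alternatives were quantile normalization, equal 75th percentiles, no floor, an offset of 32, no filter, a filter at the 60th percentile, averaging all probe sets of a gene, a replicate block, a trended and robust prior, a fit of only the groups compared, and leaving out each array. The genes and lists were chosen with earlier results of these data known. Any proteasome gene could be named. Values in every array are given for the most changed member of a role group, for all members of role groups of 4 or fewer that passed any comparison, for the catalytic subunits and for Nfe2l1. They are also given for Psma8, Psmd8, Psmf1 and Maff, which were chosen after their values were seen.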

Additional observations from a re-analysis of the deposited data

Results flagged for a closer look

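In 41 of the 45 genes tested and in 17 other pathway genes the change from control at day 14 differed from the change from control at day 7. The controls cancel in that difference, so it equals day 14 minus day 7, and it was tested within the limma fit over all 9 arrays (adjusted p below 0.05, where 51.0% of all genes passed). Of the 41 genes, 39 are subunits, regulators or assembly chaperones of the proteasome. The values below are log2 differences, day 14 minus day 7.

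In the alpha ring the difference was -0.43 in Psma1, -0.36 in Psma2, -0.18 in Psma3, -0.58 in Psma4, -0.57 in Psma5, -0.40 in Psma6 and -0.24 in Psma7. In the beta ring it was -0.35 in Psmb1, -0.51 in Psmb2, -0.52 in Psmb3, -0.37 in Psmb4, -0.76 in Psmb5, -0.54 in Psmb6 and -0.64 in Psmb7. Both rings were lower at day 14 than at day 7 in each of these genes, as read from the brightest probe set. The immunoproteasome subunits differed by -0.56 in Psmb8, -0.66 in Psmb9 and -0.62 in Psmb10, in the same direction.

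Among the ATPases of the 19S cap it was -0.45 in Psmc1, -0.27 in Psmc2, -0.45 in Psmc3, -0.63 in Psmc4 and -0.71 in Psmc5. The other cap subunits gave -0.44 in Psmd1, -0.17 in Psmd11, -0.43 in Psmd12, -0.86 in Psmd13, -0.65 in Psmd14, -0.41 in Psmd2, -0.28 in Psmd3, -0.38 in Psmd4, -0.45 in Psmd6, -0.67 in Psmd7 and -0.29 in Psmd8. For the base chaperones the values were -0.57 in Psmd5, -0.41 in Psmd9 and -0.58 in Psmd10.

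The alpha ring chaperones differed by -0.86 in Psmg1, -0.83 in Psmg2, -0.95 in Psmg3 and -0.30 in Psmg4. The activators Psme1 and Psme3 differed by -0.35 in Psme1 and -1.04 in Psme3. Of these, Psme3 combined a day 7 level above the controls with a day 14 level below them. Psmc3ip and Psme3ip1, which are no proteasome proteins, differed by -1.43 in Psmc3ip and -0.44 in Psme3ip1.

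Of the other pathway genes, those lower at day 14 differed by -0.26 in Sem1, -0.37 in Pomp, -0.40 in Uchl5, -0.22 in Ube3c, -0.27 in Uba6, -0.20 in Rad23b, -0.19 in Ubqln1, -0.21 in Ubqln4 and -0.22 in Nploc4. Those higher at day 14 differed by 0.40 in Usp14, 1.51 in Maff, 0.45 in Mafg, 0.92 in Mafk and 0.27 in Ubqln2. The small MAF genes thus moved opposite to the proteasome genes. With equal 75th percentiles 7 of these pathway calls were lost, those of Sem1, Ube3c, Uba6, Rad23b, Ubqln1, Ubqln4 and Nploc4, and after quantile normalization 6, the same genes without Sem1. Among the proteasome genes the calls of Psma3, Psma7, Psmc2, Psmd3, Psmd8, Psmd11 and Psmg4 were lost with equal 75th percentiles, and those of Psma7 and Psmg4 after quantile normalization. With all probe sets of a gene averaged, the calls of Psma3, Psma6, Psmb1, Psmb4, Psmd11 and Psmg4 were lost. In that setting Psma1 (0.090) and Psmd9 (0.022) turned positive without passing. Of the other pathway genes, Rad23b and Ubqln2 lost their calls there and Usp14 turned to -0.081. No group of 3 arrays was searched for single outlying arrays.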

How the results depend on the processing

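Over 19 alternatives, the proteasome genes that fell at day 14 numbered 28 to 38 against control and 33 to 42 against day 7, and 26 of the 36 calls against control and 29 of the 41 against day 7 were present in every one. When each array was left out in turn, 32 (without control replicate 2) to 38 (without control replicate 3) fell against control and 37 to 41 against day 7, and none rose. The median difference then lay between -0.41 and -0.34 against control and between -0.48 and -0.41 against day 7. With equal 75th percentiles the medians were -0.26 and -0.31, and with all probe sets of a gene averaged -0.29 and -0.33. Those means include dim probe sets, so each gene's value draws on more probes. With equal 75th percentiles the share of called genes that were lower was 42.6% against control and 42.2% against day 7, with quantile normalization 54.9% and 56.0%, and as deposited 65.1% and 65.9%; the median of all genes against control moved from -0.061 as deposited to 0.060 with equal 75th percentiles.

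Few genes changed between having passed and not in the upward direction or at day 7. Psma8 rose at day 14 against control under both scalings (1 gene, 0.38), and with the mean of probe sets Psme4 rose against day 7 (1 gene, 0.33). At day 7, Psme4 fell (1 gene) with an offset of 32, without the filter, with the stricter filter and with the trended prior, and Psmd8 rose (1 gene, 0.24 and 0.25) with the offset and the trended prior. Leaving out arrays gave 0 to 2 genes that rose at day 7, the 2 being Psmc3ip and Psme3 without control replicate 2, and 0 that fell; the median then lay between 0.063 and 0.13. Of all genes, 423 passed at day 7, with 703 under the offset, 59 without the filter and 674 with the trended prior. Leaving out 1 array gave 78 (without control replicate 3) to 552 (without control replicate 2), with 186 without control replicate 1 and 145, 84 and 123 without day 7 replicates 1, 2 and 3.

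The labels number the replicates alike in the 3 groups. Deviations of same-numbered arrays correlated between -0.19 and 0.12 (9 pairs) and those of differently numbered arrays between -0.15 and 0.20 (18 pairs), so the numbers were not taken to pair the arrays. With a replicate block 37 genes fell at day 14 against control, 39 fell against day 7, and 280 of all genes passed at day 7.

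Values that turned sign belong to differences near 0 or to genes whose probe sets disagree. At day 7 against control only 21 of the 45 proteasome genes were followed across the settings, and of the other pathway genes only some in each comparison. The sign changes named below are therefore not a full list. With equal 75th percentiles these were 0.025 for Psmc6, 0.076 for Psmd8 and 0.090 for Psmg4 against control, and 0.063 for Nfe2l1, 0.061 for Psma8, 0.11 for Psme4 and 0.016 for Psmf1 against day 7. With quantile normalization they were 0.071 for Psmg4 against control, and 0.022 for Nfe2l1, 0.031 for Psma8, 0.034 for Psme4 and 0.015 for Psmf1 against day 7. With the mean of probe sets, day 14 against control gave 0.088 for Psmc6, 0.0088 for Psmd11, 0.0055 for Psmd9, 0.17 for Psme4, -0.21 for Psmf1 (which passed), -0.15 for Usp14 and 0.075 for Vcp. The same setting gave 0.090 for Psma1, 0.022 for Psmd9, 0.33 for Psme4 and -0.081 for Usp14 against day 7, and -0.064 for Psmd13, -0.016 for Psmd9 and -0.073 for Psmf1 at day 7 against control. Leaving out 1 array at a time gave both signs for 11 of the values followed. At day 14 against control these were Nfe2l1 (-0.0090 to 0.045), Psmf1 (-0.0029 to 0.11) and Psmg4 (-0.089 to 0.026). At day 14 against day 7 they were Psma8 (-0.19 to 0.023) and Psme4 (-0.041 to 0.0080). At day 7 against control they were Psma4 (-0.0058 to 0.091), Psmb8 (-0.055 to 0.0094), Psmb9 (-0.034 to 0.14), Psmb10 (-0.015 to 0.14), Psmc5 (-0.065 to 0.0056) and Psmd10 (-0.032 to 0.081). Where no construction of the alternative is named, the cause was not tested.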
